A study of Homo sapiens with 2 samples.

Results

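The NRF2 and thiol antioxidant system was examined in U87 cells as 39 genes, chosen by name for their role in making, reducing or using glutathione and thioredoxin, in removing superoxide and peroxide, in supplying NADPH, or in regulating the transcription factor NRF2. They are 39 of the 41582 gene symbols matched in the deposited table, and 37 of them averaged 1 TPM or more over both libraries. U87 is an established human glioblastoma cell line, labelled wild type and grown in RPMI with 10% FBS. It received CCA-1.1, a curcumin analog, or its vehicle DMSO for 72 h, with 1 library per condition. The dose of CCA-1.1 given to the sequenced cells is not stated in the sources used here. No difference below therefore has a replicate check, no p-value was calculated, and an effect of CCA-1.1 cannot be told apart from other differences between the 2 cultures.

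NRF2, encoded by NFE2L2, is held at a low level by KEAP1, which delivers it to the CUL3 ubiquitin ligase. Oxidants and electrophiles, curcumin among them, modify cysteines of KEAP1, and NRF2 then enters the nucleus, pairs with a small MAF protein and binds antioxidant response elements (AREs) next to its target genes. Its targets make glutathione and keep glutathione and thioredoxin in their reduced state, so that peroxides can be removed.

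Values are in TPM, a unit scaled to transcript length and library size, so levels of different genes can be set side by side. Gene levels are sums of TPM over transcripts, and a difference is log2((CCA-1.1 TPM + 1) / (DMSO TPM + 1)). On this scale the change of weakly expressed genes is understated. The 12041 protein-coding genes averaging 1 TPM or more, called the background genes here, served for comparison, with a median difference of 0.017 and 5th and 95th percentiles of -0.31 and 0.36. TPM holds no read depth, which leaves counting error without an interval. In bulk RNA, fewer cells that express a gene and less RNA of it per cell cannot be told apart. Of the glioblastoma line markers, VIM (3217 TPM with DMSO, 3106 TPM with CCA-1.1), CHI3L1 (4947 and 4397 TPM) and CD44 (607 and 473 TPM) were high, NES, OLIG2 and SOX2 lay between 1.45 and 7.62 TPM, GFAP was below 1 TPM in both libraries and S100B was listed at 0 in both. Of the 3 immune markers, PTPRC was below 0.1 TPM and AIF1 was listed at 0 in both libraries, while CD68, a lysosomal protein used as a macrophage marker, was at 494.2 TPM with DMSO and 397.1 TPM with CCA-1.1 (-0.31). The epithelial markers EPCAM and CDH1 were below 0.2 TPM. Of the endothelial markers, PECAM1 was at 3.41 and 2.71 TPM and CDH5 at 0.40 and 0.33 TPM, and of the neuronal ones, SYT1 was at 11.4 and 11.5 TPM and RBFOX3 at 1.83 and 2.45 TPM.

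The antioxidant transcripts were abundant in U87 cells and were close to level between the 2 libraries. The 39 genes together held 1.35% of all TPM in the DMSO library (13528 TPM) and 1.29% in the CCA-1.1 library (12862 TPM). SOD2 (2158 TPM with DMSO), PRDX1 (2040 TPM), SQSTM1 (1309 TPM) and GPX4 (1113 TPM) had the highest levels, and ME1 (0.24 TPM) and GPX7 (0.02 TPM) were the 2 members under the minimum. None of the 37 genes passed 1.5-fold or 2-fold in either direction. For all background genes, 0.963% were past 1.5-fold higher and 0.739% past 1.5-fold lower, and 0.149% and 0.191% past 2-fold, so a list of this size holds few such genes at the background rate. Past 1.2-fold, a difference of 0.26, TXNRD2 was higher, against 10.7% of background genes, and SOD2 and GLRX were lower, against 7.04%. By sign alone, 24 of the 37 genes (64.9%) were lower in the CCA-1.1 library, against 46% of all background genes, and the median difference was -0.04. The 46%, here and below, covers genes of all levels and is not matched to the members. Of background genes of similar level (mean within 2-fold), 57.5% lay below HMOX1 (-0.0025), against 45.5% of all background genes. For GPX4 (0.04) these shares were 51.7% and 54.8%, so the comparison depends on level. These counts describe the 2 libraries and are no test.

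**Figure D1:**
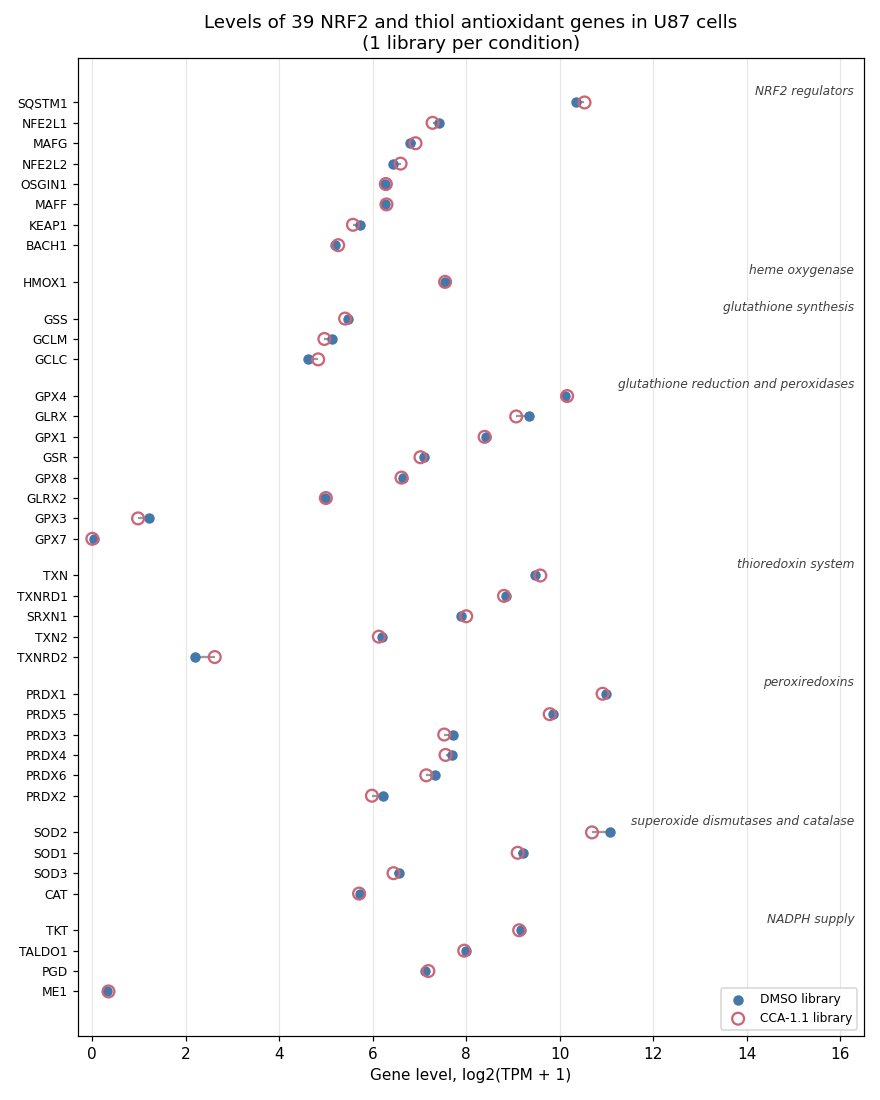
Level of each of the 39 genes as log2(TPM + 1), grouped by role, with a filled circle for the DMSO library and an open circle for the CCA-1.1 library (1 library per condition, no error bars). The circles of most genes overlap, the widest gaps are those of SOD2, GLRX, GPX3 and TXNRD2, and ME1 and GPX7 lie near 0.

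The genes that regulate NRF2 differed little. None of the 8 was past 1.2-fold, against 10.7% of background genes higher and 7.04% lower. At that rate a list of this size holds few such genes. NFE2L2 itself, on chromosome 2 of GRCh38.p14 from 177230303 to 177264727, was at 85.8 TPM with DMSO and 95.7 TPM with CCA-1.1, a difference of 0.16. KEAP1, its cysteine sensor, was at 52.2 TPM with DMSO and 46.7 TPM with CCA-1.1, a difference of -0.16. The ratio of NFE2L2 to KEAP1 TPM was thus 1.64 under DMSO and 2.05 under CCA-1.1, although both differences lie within the 5th to 95th percentiles of background genes at a similar level. SQSTM1, the autophagy adaptor that binds KEAP1 and is itself an NRF2 target, was at 1309 TPM and 1478 TPM, a difference of 0.18. NFE2L1, the related factor that acts on proteasome genes, was at 169.0 TPM and 154.4 TPM (-0.13).

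The DNA-binding partners of NRF2 and its competitor were nearly level. The small MAF genes MAFG (110.7 TPM with DMSO, 119.7 TPM with CCA-1.1) and MAFF (75.3 and 77.4 TPM) differed by 0.11 and 0.04. With predicted transcripts left out, the difference of MAFG was 0.0053. BACH1, the heme-sensing repressor that competes with NRF2 for the same elements, was at 35.7 and 37.3 TPM (0.06). OSGIN1, an oxidative stress induced growth inhibitor, was at 76.1 and 76.7 TPM (0.01). Over these 8 regulators, 6 were higher and 2 lower, with a median of 0.05, while 46% of background genes were lower. With the CCA-1.1 library scaled by the median ratio of background genes, 5 were higher and 3 lower.

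HMOX1, heme oxygenase 1, is among the most inducible targets of NRF2 and of BACH1 release. On chromosome 22, it was at 186.3 TPM with DMSO and 186.0 TPM with CCA-1.1, a difference of -0.0025. NQO1, the quinone reductase often read as an NRF2 reporter and not a member of the list, was at 256.4 and 255.9 TPM, a difference of -0.0026, so these 2 targets had the same ratio to each other in both libraries (1.38). The 15 members taken as widely known ARE targets were HMOX1, GCLC, GCLM, GSR, TXN, TXNRD1, SRXN1, PRDX1, PGD, TALDO1, TKT, ME1, SQSTM1, OSGIN1 and MAFG. Of these 15, 14 had at least 1 TPM, and 7 were lower and 7 higher, with a median of 0.0046. The split depends on which genes are counted. Among background genes, 46% were lower. Their differences ran from -0.17 for GCLM to 0.22 for GCLC. None passed 1.2-fold, against 10.7% of background genes higher and 7.04% lower. With the CCA-1.1 library scaled by the median ratio of background genes, 8 were lower and 6 higher, and the median was -0.01.

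The core letters of an ARE, TGACNNNGC, were searched on both strands in RefSeq promoter windows of GRCh38.p14, from 250 bases before to 50 after each start. Windows were found for 32 of the 39 genes; GSR, GSS, HMOX1, PRDX1, PRDX6, SOD1 and TXN2 had none. The core was found in 6 of these 32 genes (18.8%), namely GCLM, KEAP1, MAFF, ME1, PGD and TXNRD1, against 19.6% of the 9900 background genes with a window and 13.3% of all 35116 windows. The core followed by an A was found in GCLM, KEAP1 and TXNRD1, 9.38% of member genes against 4.12% of background genes. Both shares rest on few genes, a match is a description of letters and not a bound site, and AREs farther from the start are outside the windows. The 60 bases around the core are shown for the 3 genes that hold the core followed by an A, and for ME1, whose core overlaps another motif, on the strand of the gene and ending before its start, with each core in capitals (a core on the other strand is shown as its reverse complement).
GCLM, chr1:93909431-93909490, minus strand: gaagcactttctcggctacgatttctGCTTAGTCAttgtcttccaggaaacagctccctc
KEAP1, chr19:10502772-10502831, minus strand: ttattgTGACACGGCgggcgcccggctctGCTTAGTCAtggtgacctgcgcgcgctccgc
TXNRD1, upstream start, chr12:104215655-104215714, plus strand: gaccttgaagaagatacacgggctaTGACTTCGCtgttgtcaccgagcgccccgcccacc
TXNRD1, downstream start, chr12:104286905-104286964, plus strand: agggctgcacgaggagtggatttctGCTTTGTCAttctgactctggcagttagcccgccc
ME1, chr6:83431154-83431213, minus strand: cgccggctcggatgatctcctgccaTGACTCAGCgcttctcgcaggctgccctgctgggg
GCLM and KEAP1 share the core TGACTAAGC, read on the strand opposite to the gene, 25 and 22 bases before the start. The core of ME1 also contains TGACTCA, the letters of an AP-1 site. The genes with these letters did not share a direction. GCLM (-0.17) and KEAP1 (-0.16) were lower, TXNRD1 (-0.04) and MAFF (0.04) were close to the background median, and PGD (0.08) was slightly higher. ME1 was under the minimum of 1 TPM.

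Glutathione synthesis showed opposite signs for the subunits of its rate-limiting enzyme. GCLC, the catalytic subunit of glutamate-cysteine ligase, was at 23.5 TPM with DMSO and 27.5 TPM with CCA-1.1, a difference of 0.22. GCLM, the modifier subunit that raises its affinity for glutamate, was at 34.1 and 30.2 TPM, a difference of -0.17. The ratio of GCLC to GCLM was 0.687 under DMSO and 0.909 under CCA-1.1. Both differences lay within the 5th to 95th percentiles of background genes of similar level, which were -0.27 and 0.31 for GCLC and -0.27 and 0.30 for GCLM. The transcripts of GCLM were of mixed sign. Its main one, NM_002061.4, was at 16.2 and 11.3 TPM (-0.49), and NM_001308253.2 at 3.72 and 6.59 TPM (0.69). With predicted transcripts left out, the difference of GCLM was -0.15. GSS, glutathione synthetase, which adds glycine, was at 43.3 and 41.4 TPM (-0.06).

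Among the genes that reduce and use glutathione, GLRX was past 1.2-fold lower and GPX1, GPX4 and GPX8 were nearly level. GLRX, the cytosolic glutaredoxin that removes glutathione from protein thiols, lies on chromosome 5 and was at 647.8 TPM with DMSO and 535.9 TPM with CCA-1.1. The CCA-1.1 level was 82.7% of the DMSO level, a difference of -0.27, and 7.08% of background genes of similar level (mean within 2-fold of its own) had a lower value. Its mitochondrial and nuclear relative GLRX2 was at 30.5 and 30.9 TPM (0.02). GSR, which returns oxidized glutathione to its reduced form with NADPH, was at 135.4 and 128.8 TPM (-0.07).

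GPX4, the selenoenzyme that reduces lipid hydroperoxides and restrains ferroptosis, was at 1113 TPM with DMSO and 1141 TPM with CCA-1.1 (0.04). GPX1, the general cytosolic peroxidase, was at 343.5 and 335.1 TPM (-0.04), and GPX8, of the endoplasmic reticulum, at 99.5 and 97.0 TPM (-0.04). GPX3, which is secreted, was at 1.33 and 0.97 TPM (-0.24), and GPX7 was at 0.02 TPM with DMSO and listed at 0 in CCA-1.1. The values of GPX7 are near the floor of the table, where the smallest value above 0 is 0.01 TPM. Those of GPX3 are near the minimum of 1 TPM, and its level with CCA-1.1 was below it.

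In the thioredoxin system, the cytosolic genes were high and close to level, and the mitochondrial reductase was low and higher in the CCA-1.1 library. TXN, thioredoxin, was at 708.4 TPM with DMSO and 766.8 TPM with CCA-1.1, a difference of 0.11. TXNRD1, the selenoenzyme that reduces it, was at 459.0 and 447.3 TPM (-0.04). SRXN1, sulfiredoxin, which repairs over-oxidized peroxiredoxins and is a known NRF2 target, was at 236.6 and 254.9 TPM (0.11). The mitochondrial thioredoxin TXN2 was at 72.5 and 69.1 TPM (-0.07).

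TXNRD2, the mitochondrial thioredoxin reductase on chromosome 22 from 19875522 to 19941818, was at 3.57 TPM with DMSO and 5.14 TPM with CCA-1.1. Its difference of 0.43 was the highest of the 37 genes and was above 97.0% of all background genes, but at 94.3% among genes of similar level, whose 95th percentile was 0.44. With a pseudocount of 10 TPM, the difference of TXNRD2 was 0.16. TXNRD2 overlaps other genes in position, and the part of overlapping reads was not tested.

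All 6 peroxiredoxins, the thiol peroxidases that TXN or glutathione recharges, were lower in the CCA-1.1 library, each by a small amount. Among background genes of all levels, 46% were lower, a share not matched to the levels of the peroxiredoxins. The share of background genes of similar level with a lower difference ran from 7.62% (PRDX2) to 36.7% (PRDX5). PRDX2 was at 73.4 TPM with DMSO and 62.2 TPM with CCA-1.1 (-0.24), and PRDX6, the single-cysteine member that uses glutathione, at 161.1 and 140.6 TPM (-0.20). PRDX3, of mitochondria, was at 208.6 and 183.7 TPM (-0.18), and PRDX4, of the endoplasmic reticulum, at 205.2 and 187.3 TPM (-0.13). PRDX1, the main cytosolic member, was at 2040 and 1932 TPM (-0.08), and PRDX5 at 927.2 and 881.8 TPM (-0.07). None passed 1.2-fold, against 10.7% of background genes higher and 7.04% lower. Each lay within the 5th to 95th percentiles of background genes of similar level, and the median was -0.16. All 6 were also lower with a pseudocount of 0.1 or 10 TPM, with median-ratio scaling and with curated transcripts only. None of these settings could turn their signs, so they are no check of the direction. A pseudocount keeps a sign, the scaling lowers every CCA-1.1 value, and all peroxiredoxin transcripts are curated. Together they held 3616 TPM under DMSO and 3388 TPM under CCA-1.1. The ratio of PRDX1 to SRXN1 was 8.62 under DMSO and 7.58 under CCA-1.1.

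**Figure D2:**
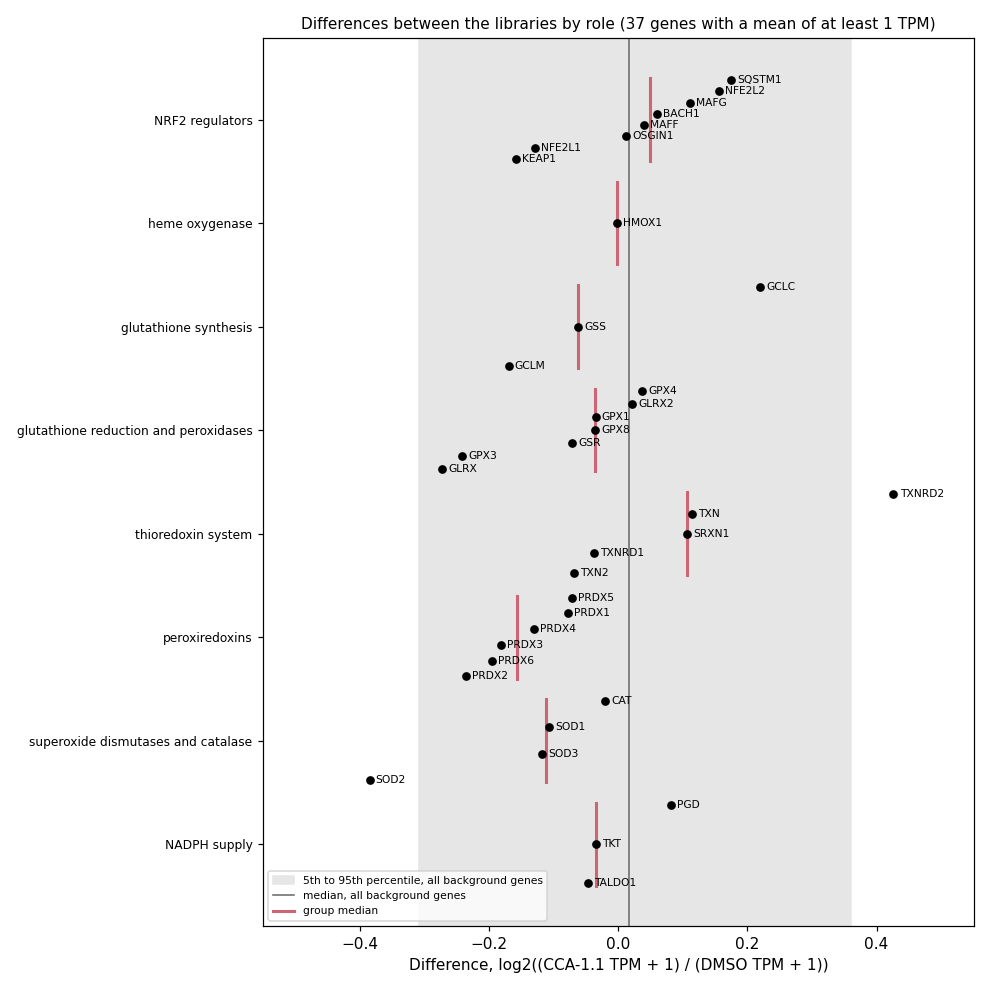
Difference between the libraries, log2((CCA-1.1 TPM + 1) / (DMSO TPM + 1)), of the 37 genes averaging 1 TPM or more, by role, with the group median as a red bar, the median of all 12041 background genes as a line and their 5th to 95th percentiles in grey. Of the 37 genes, SOD2 (-0.39) and TXNRD2 (0.43) lie outside the grey band, which leaves out 5% of background genes on each side. All 6 peroxiredoxins lie left of 0.

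SOD2 had the largest difference of the list in TPM and the lowest on the log2 scale. It encodes the manganese superoxide dismutase of the mitochondrial matrix, is known to be induced by inflammatory cytokines through NF-kB, and lies on chromosome 6 from 159669069 to 159762281. SOD2 was at 2158 TPM with DMSO and 1652 TPM with CCA-1.1, which is 76.6% of the DMSO level and a difference of -0.39. Of background genes of similar level, 2.78% had a lower difference, and the 5th percentile of these 108 genes was -0.33. Of the 37 members above the minimum, SOD2 was the only gene outside the 5th to 95th percentiles of genes of similar level. By definition 5% of such genes lie outside on each side, so a list of 37 holds a few at the background rate. Its share of the TPM of all members was 15.95% under DMSO and 12.8% under CCA-1.1. Without SOD2, the other 38 genes summed to 11370 TPM and 11210 TPM, a difference of -0.02 for the sum, against -0.07 with it. The locus overlaps WTAP, ACAT2 and SOD2-OT1 in position, which summed to 121.8 and 111.9 TPM, and the part of overlapping reads was not tested.

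The other genes of superoxide and peroxide removal were closer to level. SOD1, the copper and zinc enzyme of the cytosol, was at 590.4 TPM with DMSO and 548.1 TPM with CCA-1.1 (-0.11), and SOD3, the secreted form, at 93.4 and 86.0 TPM (-0.12). CAT, peroxisomal catalase, was at 52.0 and 51.2 TPM (-0.02). All 4 genes were thus below 0, against 46% of background genes of all levels, a share not matched for level. The share of background genes of similar level with a lower difference ran from 2.78% (SOD2) to 44.5% (CAT). The ratio of SOD2 to SOD1 was 3.65 under DMSO and 3.01 under CCA-1.1. By compartment, 5 members were taken as mitochondrial (SOD2, PRDX3, TXN2, GLRX2 and TXNRD2), and PRDX5 (-0.07) was not counted among them. These 5 had differences from -0.39 to 0.43, 3 lower and 2 higher, so the low value of SOD2 was not shared by all of them.

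The members of the pentose phosphate pathway, which maintains the NADPH that GSR and TXNRD1 use, were nearly level. PGD, which makes NADPH directly, was at 136.9 TPM with DMSO and 144.9 TPM with CCA-1.1 (0.08). The transaldolase TALDO1 was at 255.7 and 247.5 TPM (-0.05), and the transketolase TKT at 574.2 and 560.2 TPM (-0.04). The malic enzyme ME1 was at 0.24 and 0.27 TPM, too low for a comparison.

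At the level of single transcripts, reads shared by several transcripts are apportioned by Kallisto, so these values depend on each other. The table lists 138 transcripts of the 39 genes, of which 102 had a mean of at least 1 TPM. Of these 102, 4 were past 2-fold lower and none past 2-fold higher, against 2.93% and 3.01% of 29622 transcripts of protein-coding genes. They were minor forms of their genes, and each was under 1 TPM with CCA-1.1, so they passed the minimum only through the DMSO library. GPX1 transcript NM_001329502.2, listed at 0 with DMSO and at 1.44 TPM with CCA-1.1, was under the minimum. With no minimum, 4 were past 2-fold lower and 1 higher, so the split rests on low values and on the minimum set. GLRX transcript NM_001243658.2 was at 4.11 TPM with DMSO and 0.52 TPM with CCA-1.1, and GPX8 transcript NR_131340.2 at 3.38 and 0.75 TPM. GPX1 transcript NM_001329503.2 was at 2.46 TPM with DMSO and listed at 0 in CCA-1.1, and GPX1 transcript NM_201397.3 was at 1.83 and 0.41 TPM. These 4 transcripts were picked by the 2-fold rule, and the other transcripts named, those of GCLM included, were chosen after their values had been seen.

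The lower level of SOD2 was found in most of its transcripts. Its main transcript NM_001024465.3, with 83.8% of the SOD2 TPM with DMSO, was at 1809 TPM with DMSO and 1364 TPM with CCA-1.1 (-0.41), and the next, NM_000636.4, was at 235.7 and 192.0 TPM (-0.29). Of the 8 SOD2 transcripts with a mean of at least 1 TPM, 7 were lower and 1 was higher, NM_001322820.2 at 6.45 and 11.9 TPM. In PRDX5 the 2 main transcripts had opposite signs while the sum was nearly level. NM_012094.5 was at 562.1 TPM with DMSO and 414.8 TPM with CCA-1.1 (-0.44), and NM_001358516.2 at 293.6 and 405.2 TPM (0.46). They held 60.6% and 31.7% of the PRDX5 TPM under DMSO and 47.0% and 46.0% under CCA-1.1. A change of isoform and a different division of shared reads cannot be told apart from TPM. The 4 main transcripts of TXNRD1 held between 16.4% and 32.2% of its TPM with DMSO, and their differences ran from -0.10 to 0.16.

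The other genes of the pathway, taken from lists of further NRF2 targets, partners of NRF2 and its relatives (ligase parts, related transcription factors and processing enzymes), selenoproteins, NADPH genes and thiol genes, had medians near 0, and TXNIP stood far below the rest. Of 89 such genes with at least 1 TPM, 48 were lower (53.9%, against 46% of all background genes) and 41 higher, with a median of -0.0071. Past 1.2-fold, 5 were higher, against 10.7% of background genes, and 7 lower, against 7.04%. Past 2-fold, none was higher, against 0.149%, and 1 was lower, against 0.191%. The median was -0.06 for 31 further NRF2 targets, 0.04 for 12 NRF2 partners, -0.02 for 13 selenoproteins, -0.0058 for 14 NADPH genes and 0.0019 for 20 thiol genes. The sign of the medians of the partners, the selenoproteins and the thiol genes turned with the minimum level set. These list sizes count a gene once in each list that holds it. CUL3, the ligase scaffold that KEAP1 brings to NRF2, was at 42.2 TPM with DMSO and 40.7 TPM with CCA-1.1 (-0.05). SLC7A11, the cystine carrier that feeds glutathione synthesis, was at 18.0 and 23.1 TPM (0.34), and GGCT, an enzyme of glutathione breakdown, at 25.6 and 34 TPM (0.39). AKR1B1, an aldose reductase, was at 4202 and 3347 TPM (-0.33), and the carbonyl reductase CBR3 at 11.8 and 9.45 TPM (-0.29). SELENON, a selenoprotein of the endoplasmic reticulum, was at 71.6 and 54.1 TPM (-0.40). IDH2, the mitochondrial isocitrate dehydrogenase that makes NADPH, was at 106.3 and 73.6 TPM (-0.52).

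The gene past 2-fold was TXNIP, the arrestin-like protein that binds reduced thioredoxin and inhibits it. TXNIP was at 1682 TPM with DMSO and 133.0 TPM with CCA-1.1, which is 7.91% of the DMSO level and a difference of -3.65, the lowest of the 12041 background genes. Its 2 transcripts had the same sign, with NM_006472.6 at 1649 and 131.9 TPM. TXN, its binding partner, differed by 0.11, so the ratio of TXNIP to TXN was 2.37 under DMSO and 0.173 under CCA-1.1. None of the enzymes that use thioredoxin among the members (PRDX1 to PRDX5) passed 1.2-fold in either direction. Of background genes, 10.7% were past it higher and 7.04% lower.

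**Figure D3:**
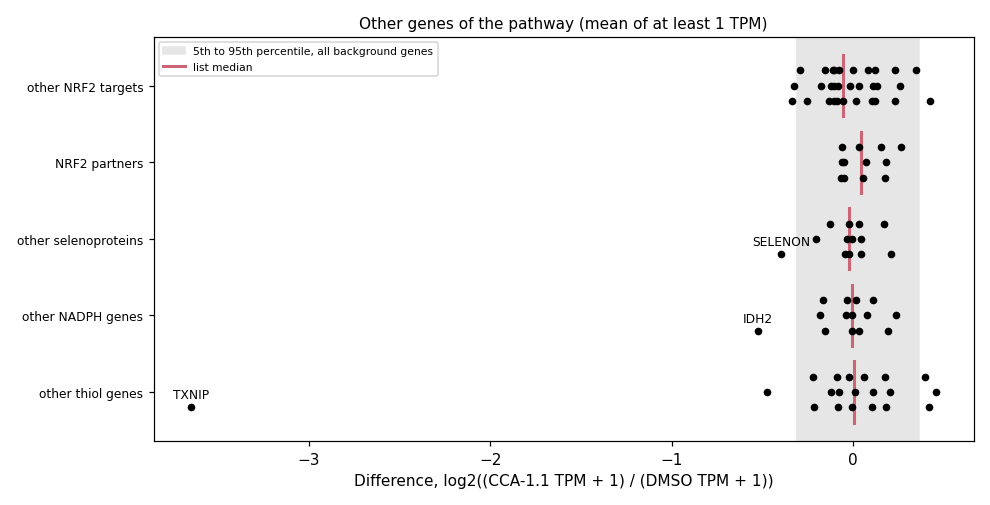
Difference between the libraries, log2((CCA-1.1 TPM + 1) / (DMSO TPM + 1)), of the other pathway genes averaging 1 TPM or more, by list, with list medians as red bars and the 5th to 95th percentiles of all background genes in grey. TXNIP lies at -3.65, IDH2 at -0.52 and SELENON at -0.40, while the list medians lie between -0.06 and 0.04.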

How the data were processed

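RNA of U87 cells was enriched for mRNA by the authors, sequenced on an Illumina instrument and checked with FastQC 0.11.9 and MultiQC 1.1. The deposited values are TPM, which the authors estimated by Kallisto pseudo-alignment to the GRCh38.p14 transcripts and rounded to 2 decimals, with 1 column per library; the unit was taken from column sums of 999999 and 1e+06. Transcripts were matched to RefSeq symbols of GRCh38.p14, ignoring versions where needed (169966 of 177816), and TPM was summed per gene with Python 3.11.15, numpy 2.4.6 and pandas 2.3.3. Differences used a pseudocount of 1 TPM, and the background was the protein-coding genes averaging 1 TPM or more. No test was run with 1 library per condition, and the calculation was checked on simulated TPM. Reads of near-identical relatives (AKR1C, GSTM and the ferritins with their pseudogenes) and of the 16 members that overlap another gene in position may be shared, and library strand is not given in the sources used here. All 39 members are named, with other pathway genes of at least 10 TPM past 1.2-fold and NQO1, SLC7A11, TXNIP and CUL3; some results are not reported here. Members and lists were chosen with earlier results of these data known.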

Additional observations from a re-analysis of the deposited data

How the results depend on the processing

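No paired analysis was possible because each condition had a single library, so leaving a library out was not possible either. A value was taken as moved when it differed by 0.1 or more on the log2 scale, by 10% for a share, or by more than 1.5 times for a count. The median of the members stayed below 0 under every alternative run. By that limit, which is wider than any of them, the 5 medians of the other lists did not move, but 3 of them changed sign. With a minimum mean of 10 TPM, the median of the NRF2 partners was -0.05 and that of the thiol genes -0.0501, and with no minimum that of the selenoproteins was 0.02. The median of the thiol genes was also below 0 with no minimum, a pseudocount of 10 TPM, median-ratio scaling and curated transcripts only. The count of members past 1.2-fold higher was 0 in place of 1 with a pseudocount of 10 TPM and with a minimum mean of 10 TPM, since TXNRD2 is low. As a share of the TPM of protein-coding genes, the members held 1.49% under DMSO and 1.42% under CCA-1.1. Of member transcripts, 1 was past 2-fold higher with a pseudocount of 0.1 TPM and with no minimum, in place of 0, and with a minimum of 10 TPM 0 were past 2-fold lower, in place of 4. Of single genes, GPX3 was at -0.42 with a pseudocount of 0.1 TPM, and with 10 TPM GPX3 was at -0.0466, SLC7A11 at 0.24 and CBR3 at -0.16. No called difference changed sign under these alternatives, but they could hardly have turned one. A pseudocount or a minimum cannot change the sign of a gene. Median-ratio scaling shifted differences by about 0.018, against a limit of 0.26. SOD2, GLRX and TXNRD2 have no predicted transcripts to leave out. Without read counts, values close to 0 have no stated precision.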

Other observations

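Ferritin, which stores the iron that heme oxygenase releases, was the most abundant of the other NRF2 target products, and its chains had opposite signs. The light chain gene FTL was at 26272 TPM with DMSO and 30788 TPM with CCA-1.1 (0.23), and the heavy chain gene FTH1 at 20580 and 19109 TPM (-0.11). Of the aldo-keto reductases, AKR1C1 was at 198.2 and 166.2 TPM (-0.25), AKR1C3 at 231.2 and 222.0 TPM (-0.06) and AKR1C2 at 49.4 and 50.5 TPM (0.03). These relatives are similar in sequence, so their separate values are less certain than their sum. The methionine sulfoxide reductases were of mixed sign, with the selenoprotein MSRB1 at 15.0 and 12.9 TPM (-0.21), MSRA at 5.03 and 3.33 TPM (-0.48), MSRB2 at 2.80 and 4.22 TPM (0.46) and MSRB3 at 2.09 and 2.56 TPM (0.20). The genes of this paragraph were chosen with their values in view.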
